A study of Rattus norvegicus with 60 samples.

Results

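DNA methylation was compared between the hypothalamus and the white blood cells (WBC) of the same weanling rats, using 22 of the 60 samples of the series. All samples titled as P22 hypothalamus or P22 WBC were taken in pairs by animal, and PF15 was left out in both tissues, which gave 11 animals. The study followed female Sprague-Dawley offspring of dams fed different diets on gestation days 1 to 21, with at most 1 pup taken per litter. Dams of the control group (C, 4 animals here) ate a pelleted control diet ad libitum, those of the pair-fed group (PF, 3 animals) received a liquid control diet in the amount eaten by an alcohol-fed partner, and those of the prenatal alcohol exposure group (PAE, 4 animals) had ad libitum access to a liquid ethanol diet. On P22, trunk blood was collected and mononuclear cells were isolated on Ficoll-Paque, while the hypothalamus was dissected and frozen. The comparison asks how large the tissue difference was, in which direction it went, how long the regions were, and how it was spread over the 20 autosomes.

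Methylated cytosines in mammals lie mostly in CG dinucleotides, and their pattern is set as cells take on their identity, so that tissues of one animal differ in methylation while sharing the same genome. In meDIP-seq, sheared DNA is pulled down with an antibody against methylated cytosine, and stretches of the genome rich in methylated CG sites pile up fragments and are called as peaks. The hypothalamus is a mixture of neurons and glial cells, and mononuclear blood cells are lymphocytes and monocytes. In such bulk samples, a different makeup of cells and a different methylation level within each cell cannot be told apart.

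Before any comparison, 2 libraries stood apart from the rest on the sex chromosomes. The C14 WBC library held 79 peaks on the Y chromosome, where the other 10 WBC libraries held 3 to 9, and 1.04% of its X and autosomal peaks lay on the X chromosome, against 2.28% to 2.49% in the others. The PAE16 hypothalamus library held 17 Y chromosome peaks, against 2 to 5 in the other 10 hypothalamus libraries, with an X chromosome share of 1.53% against 1.93% to 2.19%. All animals are labelled as female. The other tissue of the same animals did not stand apart, with 3 Y chromosome peaks in C14 hypothalamus and 7 in PAE16 WBC, and X chromosome shares within the ranges given. Among the 36 younger hypothalami of the series, Y chromosome peaks ranged from 3 to 14. After the mean of each tissue was removed, the WBC of both animals correlated best with their own hypothalamus (r = 0.020 in C14, at most 0.002 with another; r = 0.035 in PAE16, at most 0.004), although all these correlations were weak. Results are therefore given for the 11 animals and, where a call or a count moved, without C14 and PAE16. Extraction round and sequencing pool also differed within animals. Both tissues were spread over the same 3 pools, and 5 animals had both samples in one pool, among which 21973 regions differed (6.59% of those tested). The hypothalami were extracted in rounds 7, 8, and 11 and the WBC in rounds 9, 10, and 11, and C16 was the only animal with both samples in the same round. Tissue and extraction round therefore cannot be told apart in the other 10 animals.

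The WBC gave more peaks from fewer fragments. The hypothalamus libraries held between 16498609 and 18030851 fragments after filtering (median = 17187638), and the WBC libraries between 11910384 and 15467157 (median = 14638089), without overlap. Nonetheless, the hypothalamus libraries held only 143311 to 172209 autosomal peaks (median = 154182), against 163718 to 210295 in WBC (median = 203362). Peaks were fewer in the hypothalamus in 11 of 11 animals, with within-animal differences from -16413 (PF16) to -55868 (PAE15) peaks. The mean difference of hypothalamus minus WBC was -41702 ± 12461 peaks (SD, n = 11; two-sided exact sign-flip permutation test, p = 9.77e-04, the smallest that 11 animals can give). The same p was reached by most of the 18 measures tested per sample (Benjamini-Hochberg adjusted p = 0.00117 over the 18 exact tests). In C16, the pair from a single extraction round, the difference was -54868 peaks.

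**Figure D1:**
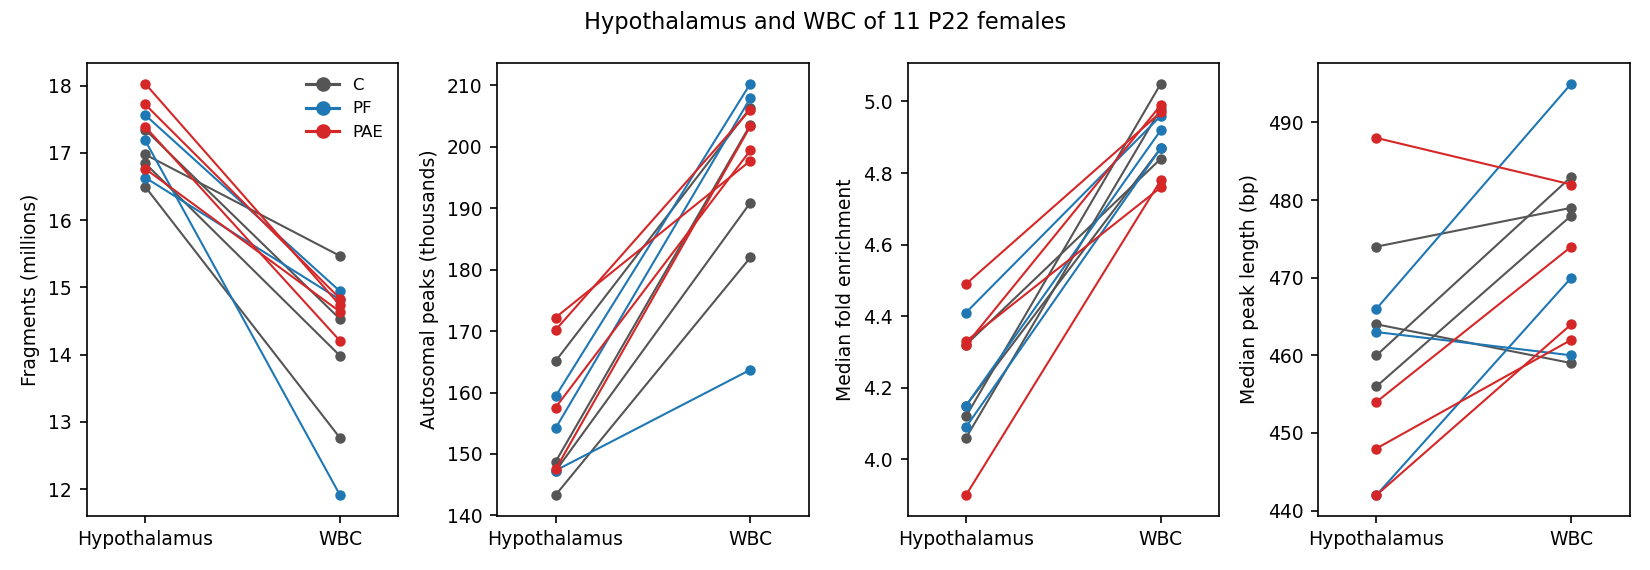
Fragments after filtering, autosomal peaks, median fold enrichment over local background, and median peak length in bp for each sample, with a line joining the hypothalamus and WBC of each of the 11 animals, colored by prenatal group (C, PF, PAE). None of the vertical axes starts at 0, and median peak length was longer in the hypothalamus in 3 animals.

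Peaks covered 78400383 to 89689778 bp of the autosomes in the hypothalamus (median = 82856965 bp) and 94662637 to 115845074 bp in WBC (median = 110889680 bp). The extent covered was smaller in the hypothalamus in all 11 animals. Part of the gap in peak number lay near the detection limit, as the smallest peak that passed the threshold of a library had a scaled height of 6.98 to 8.09 fragments in the hypothalamus but 5.02 to 6.17 in WBC. Scaled height here is the number of fragments over the summit of a peak, divided by a factor that brings the samples to a common level across the regions they all share. Counting only peaks of at least 8.09 scaled fragments, the limit of the least sensitive library, left a median of 151783 peaks in the hypothalamus and 187683 in WBC, and the number was still lower in the hypothalamus of 11 of 11 animals (mean difference = -30985 peaks; exact p = 9.77e-04).

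The direction of the difference in typical peak height depended on the scaling. Median fold enrichment, the ratio of a summit to its local background, was 3.90 to 4.49 in the hypothalamus (median = 4.15) and 4.76 to 5.05 in WBC (median = 4.92), without overlap. Median scaled height, in contrast, was 17.0 to 18.5 fragments in the hypothalamus (median = 17.7) and 15.4 to 17.5 in WBC (median = 15.9), and was higher in the hypothalamus of 11 of 11 animals. Before scaling, median height was 16 to 17 fragments in the hypothalamus and 17 to 19 in WBC, lower in the hypothalamus of 11 of 11 animals (mean difference = -1.55 fragments; exact p = 9.77e-04), the direction of fold enrichment. These medians are over called peaks, and the smallest peak called differed between the tissues. Prenatal group did not move any of these tissue differences beyond the spread between animals. In permutations of the group labels over the 11550 ways to divide the 11 animals, the adjusted exact p was 0.901 for every measure.

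Hypothalamus peaks were also slightly shorter. Median peak length was 442 to 488 bp in the hypothalamus (median = 460 bp) and 459 to 495 bp in WBC (median = 474 bp), and the ranges overlapped for the most part. The mean difference was -13.5 ± 13.4 bp (SD, n = 11; shorter in 8 of 11 animals; two-sided exact p = 0.0146, adjusted p = 0.0155). Without C14 and PAE16 it was -11.7 bp (exact p = 0.0586), which did not pass the test in 9 animals. In C16 the hypothalamus median was longer by 5 bp. Counting only peaks of at least 8.09 scaled fragments, the mean difference was -18.0 bp (shorter in 10 of 11 animals; exact p = 0.00293), and -16.1 bp without C14 and PAE16 (exact p = 0.0117). The difference in median length thus depended on the threshold and on the animals kept. The upper end of the length distribution separated the tissues more clearly. The share of peaks over 1000 bp was 3.57% to 5.41% in the hypothalamus (median = 4.37%) and 5.45% to 6.72% in WBC (median = 5.98%), without overlap, and was lower in the hypothalamus of all 11 animals (exact p = 9.77e-04).

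Merging peaks across the 22 samples wherever they overlapped by 1 bp gave 333499 autosomal regions that were seen in 3 or more samples. The log2 scaled height of each region was compared between the tissues within animals, and a sample lacking a peak there was given the floor value, 6.57 fragments. Peaks lower than the floor were raised to it, which touched 37025 peak values in WBC (1.83%) and 0 in the hypothalamus, where the smallest peak was higher. Of these regions, 118952 differed at a false-discovery rate under 0.05 (35.7%). More were higher in WBC (73090, 21.9%) than in the hypothalamus (45862, 13.8%). The size of the difference was similar in both directions, with a median log2 difference of 0.81 in regions higher in the hypothalamus and -0.80 in those higher in WBC, against a median standard error of 0.20. A difference of at least 2-fold was reached by 37549 regions (11.3%), 14948 higher in the hypothalamus and 22601 in WBC, and one of at least 4-fold by 1741 regions, 944 and 797. The 2-fold count depended strongly on processing. It was 60608 with scaling by fragments and 93463 with a floor divided by 2. With a common threshold it was 23337, and with peaks at q under 0.001 it was 17168. Both of these thresholds also change the peaks and the regions tested.

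The split between directions depended on the scaling between samples. The hypothalamus was the higher tissue in 38.6% of the differing regions, but in 19.4% when heights were divided by the number of fragments in place of the shared regions. The median log2 difference over all regions was -0.11 with the former and -0.36 with the latter, a shift of the whole scale toward WBC. With quantile normalization the split was 46.2%, and with fold enrichment 32.1%. The 27673 regions with a peak in all 22 samples set the scale, so a near even split among them (4218 higher in the hypothalamus, 3879 in WBC) follows from the scaling. By fragments, 580 of them were higher in the hypothalamus and 20457 in WBC. Adding extraction round to the animal and tissue terms left 43 differing regions, as the tissue term is then the difference in C16 alone and its median standard error rose from 0.20 to 0.65. In the regions called before, 76.4% had the same sign with round added, but C16 is among the animals that made those calls. The median absolute log2 difference there was 0.91 with round added and 0.80 without. Noise raises the absolute value of an estimate from 1 animal, so these medians do not show that the size was kept. Without C14 and PAE16, 91987 regions differed, 34635 of them higher in the hypothalamus and 57352 in WBC.

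The single animal with both tissues in one extraction round was set beside the others. Of the 105862 regions that differed when C16 was left out, 72.3% had the same direction in C16, 8.14% the opposite one, and the remainder no difference, with both samples at the floor. In the other 10 animals, the share with the same direction ranged from 67.0% to 78.2% in the regions called without them. C16 thus lay within the range of the animals whose tissues were extracted in separate rounds. In regions with a peak in all 22 samples, where no floor enters, the direction was shared by 86.6% in C16 and by 83.2% to 90.8% in the others. Among such regions that were not called, it was shared by 61.1% in C16 and by 59.2% to 65.4% in the others. The comparison with C16 was not tested further, as a single animal gives no error.

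Most of the differing regions were not confined to 1 tissue. Of the 118952 differing regions, 19288 held peaks in the hypothalamus alone and 26058 in WBC alone. Of all regions, 215318 (64.6%) held a peak in some samples of both tissues but not in all 22, 37371 (11.2%) held one in the hypothalamus alone, and 53137 (15.9%) in WBC alone. The strictest contrast, a peak in all 11 samples of one tissue and none of the other, was met by 1544 regions in the hypothalamus and 3301 in WBC. That these separate the tissues follows from the choice. Their median log2 differences from the floor, an assigned value, were 1.73 and -1.46, respectively. Their median heights in the tissue with the peaks were 21.8 and 18.0 fragments. An intermediate class was larger. A peak in all 11 WBC and in some hypothalami was found in 40008 regions, of which 55.9% were higher in WBC, whereas a peak in all 11 hypothalami and some WBC was found in 9981 regions, of which 76.3% were higher in the hypothalamus.

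Replicates separated fully in a small part of the genome. In 5339 regions (1.60%), the lowest hypothalamus exceeded the highest WBC, and in 6637 (1.99%) the lowest WBC exceeded the highest hypothalamus. The direction was the same in all 11 animals in 18.4% of regions higher in the hypothalamus and in 18.4% of those higher in WBC. In the remainder of these called regions, at least 1 animal had both tissues at the floor or a difference in the other direction. It was also the same in 6.58% of all regions, the called ones included, and in 0.0261% of those not called. The calls come from a test within the same animals, so this contrast follows from the selection.

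The share of regions that differed varied with their height, in part by construction, since samples without a peak share the floor and regions near it cannot differ by much. When regions were ranked by mean scaled height into 4 groups of equal number, 6.14%, 42.2%, 52.6%, and 41.7% differed from the lowest to the highest group. Among regions with a peak in all 22 samples, 8097 of 27673 (29.3%) differed in the fit of all regions, and 10531 (38.1%) when these regions were fitted alone, with the variance trend and the adjustment taken from them only. The median log2 difference in the former fit was 0.55 in the hypothalamus direction and -0.46 in the WBC direction. A 2-fold difference was reached by 411 of them, 359 higher in the hypothalamus and 52 in WBC, but by 54 and 1923 with scaling by fragments. The direction of the larger differences among peaks present everywhere therefore rested on the scaling.

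The 3 regions with the largest gain in the hypothalamus among those with a peak in every sample lay on chromosomes 1, 2, and 11 of the rn6 genome. At chr1:24939359-24941380, a region of 2022 bp, scaled height was 131 to 219 fragments in the hypothalamus (median = 173) and 7.45 to 56.6 in WBC (median = 25.9). The log2 difference was 2.83 ± 0.18 (SE, n = 11; limma adjusted p = 5.04e-09). At chr2:161653427-161654208, heights were 135 to 195 in the hypothalamus and 25.1 to 52.1 in WBC (log2 difference 2.19 ± 0.08, adjusted p = 3.38e-12). All 3 regions separated the tissues without overlap, including chr11:39100300-39101080, at 112 to 157 in the hypothalamus against 16.8 to 38.1 in WBC (log2 difference 2.19 ± 0.09, adjusted p = 5.94e-11). On fold enrichment the differences were smaller, at 1.41, 1.14, and 0.55, and passed the test.

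The 3 largest differences toward WBC among such regions were smaller with this scaling. At chr16:73632535-73633485, height was 8.84 to 19.1 fragments in the hypothalamus (median = 12.5) and 28.8 to 44.2 in WBC (median = 38.0), a log2 difference of -1.57 ± 0.15 (SE, n = 11; adjusted p = 4.33e-07). Heights were 13.2 to 27.6 and 43.7 to 56.4 at chr5:166080065-166081259 (log2 difference -1.45 ± 0.12, adjusted p = 1.30e-07). They were 7.18 to 19.6 and 27.0 to 42.5 at chr12:40701267-40704202, a region of 2936 bp (log2 difference -1.35 ± 0.16, adjusted p = 6.68e-06). All 3 were higher in WBC in 11 of 11 animals. On fold enrichment in place of height the first was at -0.68, and the latter 2 did not pass the test (log2 difference -0.14, adjusted p = 0.338, and -0.06, adjusted p = 0.781). With scaling by fragments the 3 regions were at -2.11, -1.98, and -1.89, and the 3 hypothalamus regions above at 2.30, 1.66, and 1.65. The largest was still toward the hypothalamus, but the other 2 hypothalamus regions were smaller than the 3 WBC regions. All were chosen with the scaling over shared regions.

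The highest peaks found in all samples of one tissue and none of the other were far above the threshold. At chr2:161576073-161576512, the 11 hypothalami ranged from 88.3 to 142 fragments (median = 108) and no WBC sample held a peak. This region lies on the same chromosome as the shared region at chr2:161653427-161654208 named above, within the same 1 Mb window. The next were chr2:156761538-156763057, a region of 1520 bp with 77.9 to 129 fragments (median = 100), and chr9:12450707-12451125, with 66.3 to 129 (median = 94.6). Their log2 differences from the floor were 4.07 ± 0.11, 3.93 ± 0.11, and 3.87 ± 0.12 (SE, n = 11), which depend on the value of the floor. In WBC, chr4:77446828-77447301 held 68.8 to 104 fragments (median = 84.5) and no hypothalamus sample held a peak. The others were chr9:8415097-8415600, with 49.0 to 65.8 (median = 62.2), and chr16:71165103-71166184, with 42.1 to 70.8 (median = 61.0). These stood at -3.70 ± 0.11, -3.21 ± 0.12, and -3.13 ± 0.13 from the floor. On fold enrichment the differences were smaller, at 1.70, 2.40, and 2.57 for the hypothalamus regions and -0.73, -1.08, and -2.23 for the WBC regions. These regions were chosen for a peak in all 11 samples of 1 tissue and none of the other, so their separation follows from that choice.

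Differing regions were somewhat longer than the others. The median merged length was 756 bp in regions higher in the hypothalamus, 741 bp in regions higher in WBC, and 693 bp in those that did not differ, and 25.9%, 26.5%, and 22.2% of them, respectively, exceeded 1000 bp. Of the regions up to 546 bp long 27.7% differed, against 39.5% of those from 981 bp upward. Merged length spans the peaks of all samples, so it can grow with the number of samples that hold a peak. The share that differed also varied with that number, at 12.2% with a peak in 3 to 5 samples and 46.7% in 6 to 9. It was 52.7% in 10 to 16 samples and 34.1% in 17 to 22. The comparison of lengths was not adjusted for this. The regions found in all samples of a single tissue had medians of 759 bp in the hypothalamus and 803 bp in WBC. Added up, regions higher in the hypothalamus covered 39.1 Mb and those higher in WBC 61.8 Mb, out of 272 Mb in all regions. Length therefore differed little between the directions, and the larger extent in WBC followed the larger number of regions.

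Within a region, the peak itself could also be longer in one tissue. Over the 27673 regions with a peak in all 22 samples, the longest peak of each sample was compared within animals, and its length differed in 6704 (24.2%). It was longer in the hypothalamus in 1558 regions and in WBC in 5146, with a median log2 difference of 0.41 and -0.41. In 206 regions the change was 2-fold or more, 57 toward the hypothalamus and 149 toward WBC. Where peak length differed, it was thus mostly longer in WBC, each library being called at its own threshold. The smallest peak called had a scaled height of 5.02 to 6.17 fragments in WBC and 6.98 to 8.09 in the hypothalamus. A lower threshold can widen a called peak, and this length comparison was not repeated at a common threshold. With height fitted on the same regions, length and height both differed in 3105, in the same direction in 82.5% of these, and 3599 differed in length only. This overlap depended on the scaling, as in the fit of all regions 4195 differed in length only, and 1465 with scaling by fragments.

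The tissue difference was spread over all 20 autosomes, but not evenly. The share of each chromosome among the autosomal peaks of a sample shifted between tissues for 16 of 20 chromosomes (exact sign-flip permutation test over 11 animals, Benjamini-Hochberg adjusted over 20), 8 in each direction. Shares of a sample add up to a fixed total, so gains on some chromosomes require losses on others. The tests of single chromosomes are therefore not independent, and shifts in both directions follow from the measure. Chromosomes 10 and 12 lost most in the hypothalamus. Chromosome 12 took a median of 2.54% of peaks in the hypothalamus and 2.92% in WBC (share changed by -12.4%; 11 of 11 animals; exact p = 9.77e-04, adjusted p = 0.0015). Chromosome 10 took 4.64% and 5.37% (-12.3%; 11 of 11 animals; same exact p), followed by chromosome 8 (-5.94%) and chromosome 20 (-3.97%). In the other direction, the largest shift was on chromosome 2, with 9.31% of peaks in the hypothalamus and 8.56% in WBC (8.39% higher; 11 of 11 animals; exact p = 9.77e-04, adjusted p = 0.0015). Chromosome 15 gained 4.58%, chromosome 5 gained 4.48%, and chromosome 4 gained 3.85% in share. Of the 20 chromosomes, 13 reached the smallest p that 11 animals can give, and chromosomes 6, 13, 16, and 17 did not shift (adjusted exact p = 0.0942, 0.593, 0.277, and 0.983).

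**Figure D2:**
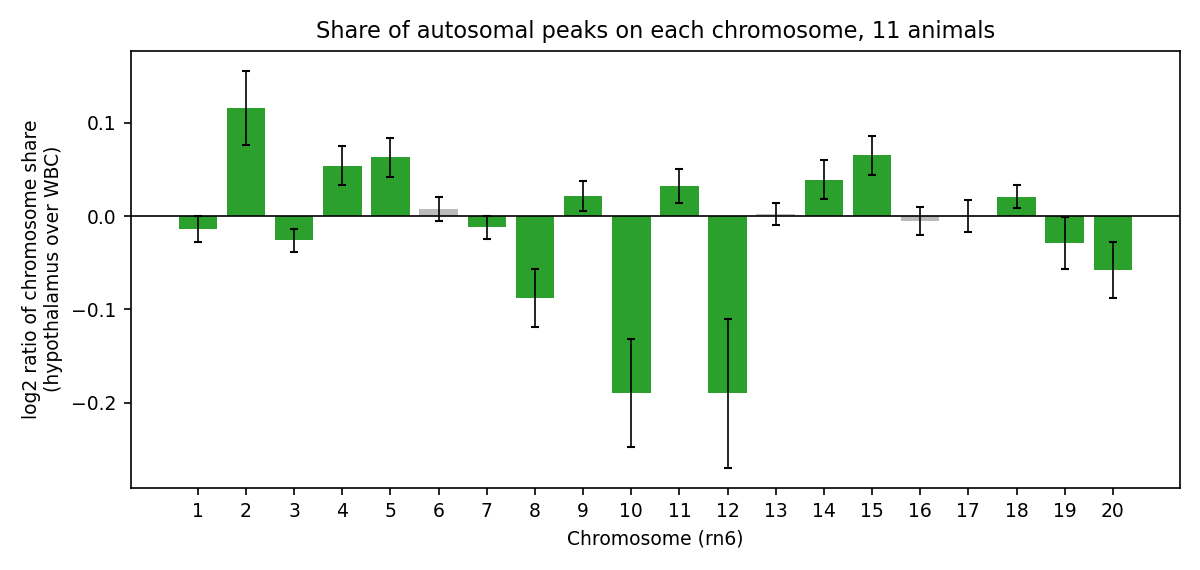
Mean log2 ratio of the share of autosomal peaks on each rn6 chromosome, hypothalamus over WBC, in 11 animals. Bars start at 0 and carry the SD over animals as error bars, and green bars passed the exact permutation test after adjustment while gray ones did not.

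The share of regions that differed in height also varied over chromosomes, only in part along with the share of peaks. On chromosome 12, 44.6% of regions differed, the highest share of any autosome, and the hypothalamus was the higher tissue in 22.7% of these. On chromosome 2, 32.6% of regions differed, with the hypothalamus higher in 47.6%. The corresponding values were 38.4% and 28.8% on chromosome 10, 38.9% and 29.7% on chromosome 20, and 40.0% and 35.9% on chromosome 19, where the share of peaks moved less (3.00% in the hypothalamus and 3.05% in WBC), against 35.7% and 38.6% over all autosomes. No chromosome was without differences in both directions. The sequence content or gene density of the chromosomes was not analysed here.

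At a finer scale, 2601 windows of 1 Mb held a mean of at least 10 peaks per sample. Taking the number of peaks in each window relative to the autosomal total of the sample, 1974 windows differed between the tissues (75.9%), 1021 with relatively more peaks in the hypothalamus and 953 in WBC. Because the numbers are relative to a total, gains in some windows go with losses in others. The near even split follows in part from this measure. Most of these shifts were small, with a median log2 difference of 0.36 and -0.21, and 21 windows reached 2-fold, 20 of them toward the hypothalamus. Regions differing in both directions were found in 95.8% of windows. The share of regions that differed had a median of 34.0% per window, between 20.6% at the 10th and 43.8% at the 90th percentile, and a single window held none. The direction varied more, as the hypothalamus was higher in 19.1% to 81.2% of the differing regions between the same percentiles. The tissue difference was therefore not limited to a few parts of the genome, and its direction varied over windows.

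The windows with the largest relative gain in the hypothalamus were on chromosomes 5, 7, and 15. Between 80 and 81 Mb on chromosome 5, the hypothalamus libraries held 31 to 48 peaks (median = 38) and the WBC libraries 14 to 22 (median = 19), although WBC had more peaks in total (log2 difference 1.44 ± 0.08, SE, n = 11; limma adjusted p = 5.08e-27). Of the 25 regions that differed there, 24 were higher in the hypothalamus. The window from 105 to 106 Mb on chromosome 7 held 38 to 60 against 15 to 29 peaks (log2 difference 1.40 ± 0.08, adjusted p = 2.04e-26), and that from 29 to 30 Mb on chromosome 15 held 23 to 57 against 9 to 27 (log2 difference 1.37 ± 0.08, adjusted p = 1.45e-24). All 28 differing regions of the latter were higher in the hypothalamus. Toward WBC, the largest shifts were in windows with few peaks. From 5 to 6 Mb on chromosome 7, there were 6 to 11 peaks in the hypothalamus and 15 to 36 in WBC (log2 difference -1.19 ± 0.10, adjusted p = 3.84e-18). The same chromosome also held the next window, from 8 to 9 Mb, with 2 to 8 against 7 to 22 peaks (log2 difference -0.98 ± 0.12, adjusted p = 8.91e-12). The third lay on chromosome 10 from 60 to 61 Mb, with 3 to 9 against 10 to 21 (log2 difference -0.95 ± 0.13, adjusted p = 5.00e-10). All 6 windows moved in the same direction in 11 of 11 animals.

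Neighbouring regions shared their direction to a limited degree. The next region along the chromosome, at a median distance of 3844 bp, was also higher in WBC for 26.2% of the regions higher in WBC, compared with 20.5% after regions that did not differ. For regions higher in the hypothalamus, it was 15.7% compared with 13.4%. After these, the next region was higher in WBC in 21.8%, and after regions higher in WBC, it was higher in the hypothalamus in 13.6%, both slightly above the shares after regions that did not differ. Most differing regions stood alone, including 71.7% of those higher in the hypothalamus and 55.7% of those higher in WBC. Random placement of the calls would also leave many regions alone, and the share it would leave was not computed. There were 506 runs of at least 5 regions toward WBC and 64 toward the hypothalamus, which cannot be compared directly, as 21.9% of all regions were higher in WBC and 13.8% in the hypothalamus. The longest held 14 consecutive regions higher in WBC over 77.8 kb at chr12:13820845-13898656, with a median log2 difference of -1.24. Toward the hypothalamus, the longest held 8 regions over 56.7 kb at chr2:52674137-52730816, with a median of 1.09. A run of 7 regions on chr19:29258646-29286322 had the larger median, 2.34, over 27.7 kb.

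Gene loci were then taken from the study's own lists of regions associated with prenatal alcohol, which carry a gene symbol and a location in the gene. These were chosen by the study in part on the same animals, for differences between prenatal groups and not between tissues. Of 108 autosomal intervals, 93 overlapped a region, and 25 of these differed between tissues (26.9%, against 35.7% of all regions), 7 higher in the hypothalamus and 18 in WBC. Their median log2 difference was -0.18, against -0.11 over all regions. Under scaling by fragments 43 loci differed, 3 higher in the hypothalamus and 40 in WBC, where 51.8% of all regions differed. Among the 24 loci in genes of the nervous system, 1 was higher in the hypothalamus, 5 in WBC (median log2 difference = -0.15). Of the 7 loci in immune genes 2 were higher in WBC and none in the hypothalamus (median 0.01), and of the 5 in metabolic genes none passed the limma test in either direction (median -0.12). *Fgf9*, which the paper counts among genes of immune function, was not in the immune group here.

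The clearest locus higher in the hypothalamus lay at an intron/exon boundary of *Zpbp2* (chr10:86515457-86516429), which encodes a zona pellucida binding protein of sperm. It held a peak in all 22 samples, at 24.3 to 37.5 fragments in the hypothalamus (median = 31.9) and 9.81 to 17.9 in WBC (median = 15.4), without overlap. The log2 difference was 1.15 ± 0.13 (SE, n = 11; adjusted p = 3.73e-06; higher in 11 of 11 animals). An intron of *Caln1*, which encodes a neuronal calcium-binding protein, held a peak in 10 hypothalami and 5 WBC samples (chr12:29736869-29737477). There, the highest hypothalamus reached 51.3 fragments and the highest WBC 37.9, so that the groups overlapped (log2 difference 0.95 ± 0.18, adjusted p = 7.22e-04; higher in 10 of 11 animals). The other 2 *Caln1* loci did not differ, at log2 differences of -0.39 (adjusted p = 0.159) and 0.17 (adjusted p = 0.438). An intron of *Ap3b1*, a subunit of an adaptor complex for vesicle transport, held a peak in 7 hypothalami and 2 WBC samples (log2 difference 0.87 ± 0.24, adjusted p = 0.0109). In *Pot1*, which protects telomere ends, 6 hypothalami and 3 WBC samples held a peak (0.56 ± 0.21, adjusted p = 0.0459). No PAE hypothalamus held one there. The locus was higher in the hypothalamus in 6 animals and in WBC in 2, PAE13 and PAE16. The loci in *LOC681383* and *LOC102550367* differed by 0.62 ± 0.20 (adjusted p = 0.023) and 0.46 ± 0.16 (adjusted p = 0.0368). *Ptpn14*, a tyrosine phosphatase gene, differed by only 0.23 ± 0.08 (adjusted p = 0.0327) and the difference became -0.31 when heights were scaled by fragments, so its direction depended on the scaling.

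Among the loci higher in WBC, the largest difference was in an intron of *Ano4* (chr7:29983390-29984242), a member of the anoctamin family of membrane proteins. No hypothalamus sample held a peak, whereas 10 of 11 WBC samples did. Over all 11 WBC samples the median was 32.4 and the maximum 47.4 fragments (log2 difference -2.08 ± 0.22, adjusted p = 1.28e-06). The WBC sample without a peak was that of PAE16. *RGD1562310* (chr12:43921010-43921576) held 37.1 to 54.9 fragments in WBC (median = 48.6) and no more than 28.9 in the hypothalamus, without overlap, a log2 difference of -1.36 ± 0.20 (adjusted p = 4.27e-05). On fold enrichment this locus did not pass the test (-0.38, adjusted p = 0.116). *Rassf5* (chr13:48019856-48020481), which encodes a Ras-binding protein known for its role in lymphocyte adhesion, held a peak in all 11 WBC samples, at 11.1 to 29.3 fragments (median = 19.4), and in 3 hypothalami at no more than 14.7. Its log2 difference was -1.23 ± 0.19 (adjusted p = 7.19e-05), and it was higher in WBC in 11 of 11 animals.

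Of the 24 loci in genes of the nervous system, 5 were higher in WBC, no larger a share than the 21.9% of all regions, and 3 of them are described here. *Kcnmb4*, an accessory subunit of calcium-activated potassium channels in neurons, held a peak in 8 WBC samples and 3 hypothalami (chr7:59493923-59494405; log2 difference -1.19 ± 0.34, adjusted p = 0.0113). In C16 the order was the opposite, with 19.0 fragments in the hypothalamus and no peak in WBC, and with extraction round added the estimate became 1.53 (adjusted p = 0.474). *Dscam*, a cell adhesion molecule of developing neurons, held a peak in 11 WBC samples, at 10.2 to 25.9 fragments, and in 5 hypothalami (chr11:37563059-37563612; log2 difference -0.90 ± 0.20, adjusted p = 0.00198). *Kcnd3*, a voltage-gated potassium channel, held one in 10 WBC samples and 3 hypothalami (-0.70 ± 0.21, adjusted p = 0.016).

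The remaining loci of the 10 largest toward WBC were in *Tns3*, a tensin of cell adhesion sites (-1.13 ± 0.19, adjusted p = 2.20e-04, a peak in 10 WBC and 0 hypothalamus samples), *Trmt1l* (-1.02 ± 0.26, adjusted p = 0.00553), *Zmynd12* (-0.75 ± 0.20, adjusted p = 0.00734), and *Mlh3*, a mismatch repair gene (-0.74 ± 0.25, adjusted p = 0.0273). Some of these calls were close to the threshold. The calls in *Pot1*, *LOC681383*, *LOC102550367*, *Ptpn14*, *RGD1562310*, *Caln1*, *Mlh3*, and *Kcnd3* were each lost in at least 1 alternative of processing or when animals were left out or PF15 was added, besides extraction round and the test on peak presence. Without C14 and PAE16, *LOC681383* (limma adjusted p = 0.0686), *Ptpn14* (0.0686), *Mlh3* (0.0688), and *Kcnd3* (0.058) did not pass. *Adh4*, an alcohol dehydrogenase gene, held a peak in 3 hypothalami and 5 WBC samples (-0.12 ± 0.19, adjusted p = 0.625). *Fgf9*, a growth factor gene, held one in 0 and 4 samples (-0.44 ± 0.17, adjusted p = 0.0546), and *Ctnnbip1*, an inhibitor of beta-catenin, in 1 and 5 (-0.57 ± 0.22, adjusted p = 0.0512). The interleukin receptor gene *Il18r1* held one in 1 and 4 samples (-0.05 ± 0.11, adjusted p = 0.718). None of these 4 loci passed the test in this fit. In alternatives, *Ctnnbip1* passed with scaling by fragments (adjusted p = 0.023), a common threshold (0.0487), and a peak in 5 or more samples (0.034), and *Fgf9* passed on fold enrichment (0.0497), with scaling by fragments (0.0338), and without the animal block (0.0485).

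**Figure D3:**
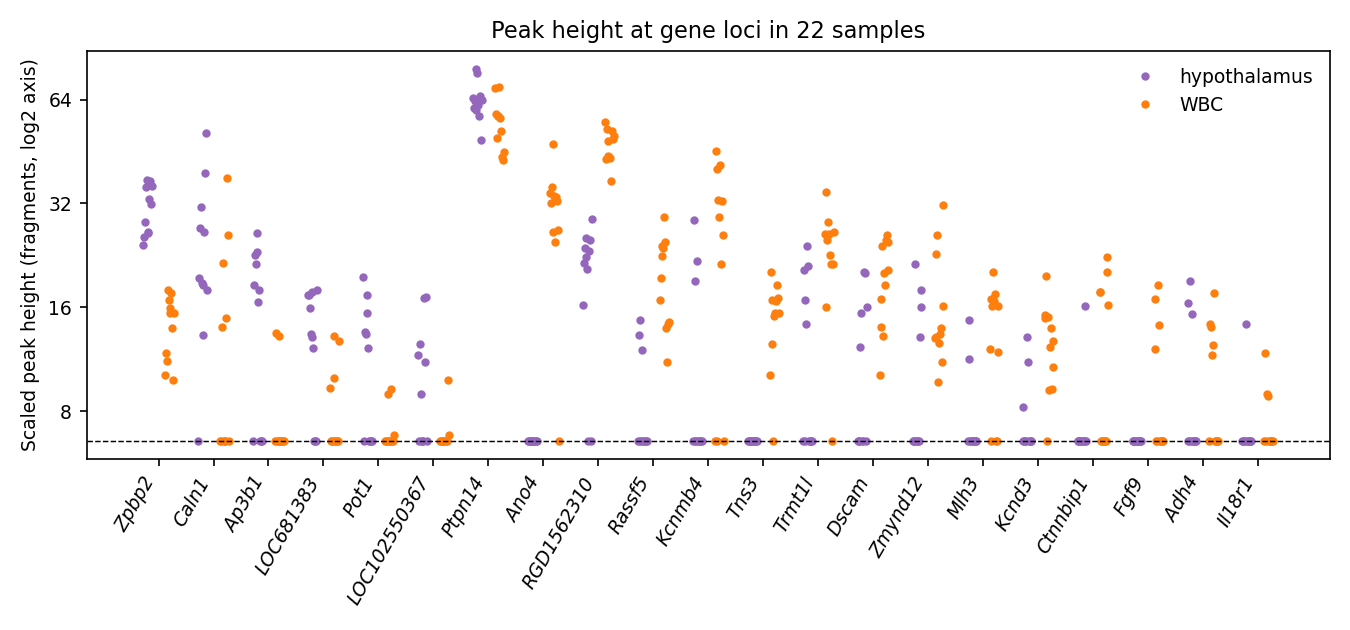
Scaled peak height in fragments, on a log2 axis, of each of the 22 samples at the named gene loci, hypothalamus in purple and WBC in orange, with 11 samples of each per locus. The dashed line is the floor of 6.57 fragments, given to samples without a peak and to the few WBC peaks below it.

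Lastly, the tissue difference was compared between the prenatal groups. The interaction of tissue with prenatal group passed a false-discovery rate of 0.05 in 2 of 333499 regions (0.000600%), and 17343 regions (5.20%) had an unadjusted p under 0.05. At chr9:12362651-12363580, the 3 PF hypothalami held no peak, whereas the other hypothalami held 67.7 to 112 fragments and all WBC samples 65.9 to 102, PF included (limma adjusted p = 0.0148). At chr4:84314238-84315097, the 4 PAE hypothalami held 28.5 to 40.3 fragments and no C or PF hypothalamus held a peak, with a single peak among the WBC, of 8.83 fragments in PF13 (adjusted p = 0.0484). Among younger hypothalami, a peak there was held by 3 of 12 C, 3 of 12 PF, and 1 of 12 PAE samples, so the pattern was not seen at the other ages. The chromosome 9 region held a peak in 11 of 12 younger PF hypothalami. PF15, the P22 animal left out, held none in the hypothalamus but held a peak in WBC. The label of that WBC sample is in doubt, as it held a peak in 76.9% of the regions found in all 11 hypothalami and no WBC. Each of these regions rested on a handful of animals. Without C14 and PAE16, no region passed (adjusted p = 0.237 for both, with 17368 regions at an unadjusted p under 0.05). The first region also lost its call without any one of the C animals, of the PF animals, or of PAE13 and PAE16 (adjusted p between 0.0541 and 0.173), and kept it without PAE14 (0.0441) or PAE15 (0.0413). The second lost it without any single animal (0.103 to 0.209).

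Separate fits showed how far the tissue calls depended on the number of animals. Among the 4 C animals alone, 6505 regions differed (1.95%), and among the 4 PAE animals 8342 (2.50%), beside 35.7% in the 11 animals. Of these, 98.9% in either group were also called in the same direction in the 11 animals, of which each group is a part. In the 3 PF animals limma called 0 regions, while 50057 of 333499 had an unadjusted p under 0.05.

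The X chromosome was described apart from the autosomes, and the contrast between them was not tested. Of 7224 X chromosome regions, 1006 differed (13.9%, beside 35.7% of autosomal regions), 260 higher in the hypothalamus and 746 in WBC. Without C14 and PAE16, 809 differed (11.2%), against 27.5% of autosomal regions in the same 9 animals, with the X chromosome and the autosomes fitted together. The X chromosome share of the peaks was 1.53% to 2.19% in the hypothalamus (median = 2.03%) and 1.04% to 2.49% in WBC (median = 2.43%), with no difference past the test in 11 animals (exact p = 0.206). In the 9 animals it was lower in the hypothalamus of 9 of 9 (exact p = 0.00391, the smallest that 9 animals can give).

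The other samples of the series were looked up in the regions held by all samples of 1 tissue and none of the other. Of the regions held by the 11 P22 hypothalami alone, the median P1 hypothalamus held a peak in 39.9%, the median P8 hypothalamus in 76.3%, and the median P15 hypothalamus in 83.3%. Of those held by the 11 WBC alone, it was 25.5%, 20.3%, and 10.6%. All younger hypothalami were in a different meDIP round from the P22 samples, and each age had its own extraction rounds. Age and these batches cannot be told apart here.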

How the data were processed

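The hypothalamus and WBC of 11 animals were compared from the deposited peak lists of the authors (MACS2 2.1.0.20140616, q-value 0.05, rn6). The deposited pileup is the height of a peak as a number of fragments over the summit. Fold enrichment, as deposited, is a ratio, summit height over the local background. The deposited significance columns are -log10 p and -log10 q values. Summits of one peak were collapsed, and peaks overlapping by 1 bp were merged over samples on chromosomes 1 to 20, and regions seen in fewer than 3 samples were dropped. The highest pileup was scaled over regions shared by all samples and log2-transformed. Tissues were compared with limma 3.58.1 (R 4.3.3), with animal as block and Benjamini-Hochberg adjustment. Per-sample measures were tested by exact two-sided sign-flip permutation over 2048 flips. Python 3.11.15, numpy 2.4.6, pandas 2.3.3, scipy 1.17.1, and matplotlib 3.10.9 were used.

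The design text says that both tissues come from the same animal. Over regions, the correlation of a WBC sample with its own hypothalamus, after removing tissue means, was 0.016 to 0.047. Members and lists were chosen with earlier results of these data known. Named regions are the 3 largest differences in each direction among regions with a peak in all 22 samples, and the 3 of highest mean scaled height among those held by all 11 samples of 1 tissue and none of the other. Named genes are the differing loci of the study's lists, up to 10 in each direction by size, and *Adh4*, *Fgf9*, *Ctnnbip1*, and *Il18r1*. The limma fits were tested on simulated heights with 200 changed regions, and the merging and exact tests on small made-up cases. The simulated heights had no missing peaks, no floor, and no effect of extraction round, so the fit at floor values was not checked. No rn6 sequence or annotation was used, and gene symbols are those of the study's tables.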

Additional observations from a re-analysis of the deposited data

Results flagged for a closer look

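Each C and PAE sample was compared with the others of its tissue and prenatal group, for 10 measures in 40 groups of 4 samples, while the 3 PF animals were too few for the rule. Such a rule marks about 1 in 20 groups by chance, and 7 of 40 were marked. Samples were kept, and the cause was not tested.

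The C14 WBC library had an X chromosome share of 1.04% and 79 Y chromosome peaks. The PAE16 hypothalamus library had 17 Y chromosome peaks, against 4 to 5 in its group. C16 hypothalamus had 2 Y chromosome peaks, against 3 in each of the others, a difference of a single peak. C14 hypothalamus covered 87337944 bp with peaks, against 78400383 to 79684875 bp. The 90th percentile of peak length in C13 hypothalamus was 839 bp, against 821 to 824 bp. PAE15 hypothalamus had a median scaled height of 18.2 fragments, against 17 to 17.1.

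In the interaction of tissue and prenatal group, 2 regions had limma adjusted p values of 0.0484 (chromosome 4) and 0.0148 (chromosome 9), which rested on peaks present in 4 PAE hypothalami or absent from 3 PF hypothalami.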

How the results depend on the processing

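The tissue difference was recomputed under other processing, other tests, and other sets of animals. The direction of most results was kept, and the counts moved with the floor, the scaling, and the number of animals. The fits without C14 and PAE16 and with 5 pairs of one pool were chosen after seeing the data. Unless stated, the cause was not tested.

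The number of differing regions went from 118952 to 10531 (5317 higher in the hypothalamus, 5214 in WBC) in regions with a peak in all 22 samples, which are fewer by construction. It was 21973 (6.59% of regions, 9056 and 12917) in the 5 pairs of one pool. In C animals alone it was 6505 (1.95%, 2712 and 3793), and in PAE animals alone 8342 (2.50%, 3944 and 4398). In PF animals alone limma called 0 regions (0 and 0), with 50057 at an unadjusted p under 0.05. Scaling by fragments gave 139259 regions higher in WBC. Leaving out 1 animal gave 101373 to 109369 regions, 37846 to 41934 higher in the hypothalamus and 63527 to 67435 in WBC. Without the block that pairs samples by animal, 120163 regions differed (46086 and 74077).

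Extraction round is confounded with tissue except in C16. With round added, limma called 43 regions (24 and 19), and 49894 had an unadjusted p under 0.05. The exact McNemar test on peak presence called 0 regions (0 and 0), with 72391 at an unadjusted p under 0.05, since its smallest p of 9.77e-04 over 11 animals gave an adjusted p of at least 0.0556.

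Regions differing at least 2-fold numbered 17168 with peaks at q under 0.001, 411 with a peak in all 22 samples, 93463 with a floor divided by 2, 60608 with scaling by fragments, 23337 with a common threshold, 43 with round added, and 19736 in one pool. Leaving out 1 animal gave 36939 to 38843.

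Gene loci differing numbered 4 with a peak in all 22 samples, 43 with scaling by fragments, 0 in limma with round added (11 at an unadjusted p under 0.05), and 0 in the exact McNemar test (8 at an unadjusted p under 0.05). Leaving out 1 animal gave 19 to 24. *Ptpn14* reversed to -0.31 with scaling by fragments, and *Kcnmb4* to 1.53 with round added.

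The interaction with prenatal group gave 7 regions with peaks at q under 0.001, 4 with quantile normalization, 1 with a peak in at least 5 samples, 1 with scaling by fragments, and 184 without the block of paired samples. In limma it gave 0 with fold enrichment (17272 at an unadjusted p under 0.05), 0 with a peak in all 22 samples (1469), 0 with a floor divided by 2 (17473), and 0 without C14 and PAE16 (17368). Leaving out 1 animal gave 0 to 2, with 17099 to 18258 at an unadjusted p under 0.05.

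Windows of 5 Mb differed in 445 of 534, and leaving out 1 animal gave 1911 to 1977 windows of 1 Mb, 16 to 17 chromosomes, and 5384 to 5962 regions differing in length. For peak length per sample, the difference without C14 and PAE16 was -11.7 bp (exact p = 0.0586), and leaving out 1 animal gave -15.5 to -12 bp. For peaks per sample, leaving out 1 animal gave -44231 to -40285. The interaction with round added was not run, and the McNemar test gives no value for the interaction or for 2-fold differences.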

Other observations

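Some values were seen beside the main comparison and are given without explanation. They describe pairing and the sample left out.

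The WBC of 10 of 11 animals correlated best with their own hypothalamus, and C13 WBC did so with the hypothalamus of PAE14 (0.024, against 0.023 with its own). PF15 WBC held a peak in 76.9% of the regions found in all 11 hypothalami and no WBC, and in 17.0% of those found in all 11 WBC and no hypothalamus. For PF15 hypothalamus, these were 93.1% and 3.00%.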
